A study of Homo sapiens with 18 samples.

Results

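Nuclear genes whose proteins transcribe mitochondrial DNA, keep its RNA stable or copy it were followed here, 10 in all: TFAM, POLRMT, TFB1M, TFB2M, TEFM, LRPPRC, SLIRP, MTPAP, POLG and TWNK. They were taken by name, through the Ensembl identifier of each row, from a count table of 61806 human genes, and all 10 were among the 19743 genes with enough counts to be tested. The cells were HepG2, a human liver cancer line, and APOA4-KO, a line made from HepG2. APOA4-KO was made by cutting the apolipoprotein gene APOA4 with CRISPR-Cas9 and growing up picked single colonies. Both lines were sampled at 0 h, outside hypoxia, and again when they had spent 24 h or 48 h at 1% oxygen, with 3 RNA-seq libraries of poly(A) RNA in each of the 6 groups. The APOA4-KO libraries come from an edited clonal line without a restored control, so the edit and other properties of the clone cannot be told apart. The 0 h groups are the only cells outside hypoxia, so hypoxia and time in culture cannot be told apart either. The study's methods speak of independent experiments in general, but the sources used here do not tie that to these libraries, so whether the 3 of a group came from separate cultures is unsettled, and p-values may measure only a technical spread between them.

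The mitochondrial genome encodes 13 mRNAs, 2 rRNAs and a set of tRNAs, and every protein that transcribes, processes or copies it is encoded in the nucleus. Transcription starts when TFAM, the protein that also packages the DNA, bends the promoter and POLRMT, the mitochondrial RNA polymerase, is joined by TFB2M to open it. TEFM keeps the polymerase moving through long transcripts, the pair LRPPRC and SLIRP protects most of the mRNAs, and MTPAP adds poly(A) tails to most of them. TFB1M methylates the small rRNA, while POLG, the DNA polymerase, and TWNK, the helicase also called Twinkle, copy the genome. In hepatocytes, which are rich in mitochondria, this machinery supports oxidative phosphorylation.

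Several of these genes are textbook targets of the transcription factor NRF1, so their promoters were searched for its core, GCNTGCGC, on both strands of the 250 bases before and 50 bases after each RefSeq start (GRCh38.p14). The core was present in 5 of the 9 members found in the promoter table (TFAM, POLRMT, TFB1M, TFB2M and MTPAP) and in 12.46% of 27305 promoters. TWNK is not among the 9. The match on the gene's own strand is shown with its flanks for each of the 5, since these are the members whose shared promoter letters can be set beside their counts; capitals mark the core.
TFAM: cgctctcccgcGCCTGCGCcaattccgccc
POLRMT: gcggcgcgggcGCATGCGCaggcgcgggcc
TFB1M: caggacttagcGCATGCGCtctcagcacgc
TFB2M: ctccgctgttcGCATGCGCaggctctagtg
MTPAP: tcccccccgacGCATGCGCgaaaacgcgct

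These windows lie at chr10:58385338-58385367 on the plus strand for TFAM, and on the minus strand at chr19:633541-633570 for POLRMT, chr6:155314596-155314625 for TFB1M, chr1:246566258-246566287 for TFB2M and chr10:30349328-30349357 for MTPAP. POLRMT, TFB1M and TFB2M also matched on the opposite strand in overlapping letters, because the core is close to a palindrome. POLRMT held a further match on the opposite strand, in a separate window at chr19:633651-633680. The core of the ETS family, CGGAAGT, was found in 3 of the 9 (POLRMT, TFB2M and TEFM) and in 7.229% of all promoters. The core of the hypoxia-inducible factors, ACGTG, was found in 1 of the 9, TFB2M, and in 21.61% of all promoters. A match describes letters in the window and is not a bound site.

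The targeted gene and the label of the cells were checked first. In CPM, the count set relative to the scaled library size, APOA4 ranged over 8.46 to 9.67 in HepG2 at 0 h, 19.8 to 21.0 at 24 h and 18.9 to 21.7 at 48 h, and over 6.98 to 8.35, 7.51 to 8.25 and 7.65 to 8.54 in APOA4-KO. It was lower in APOA4-KO at each time, by 0.23, 1.35 and 1.29 on the log2 scale, but not absent. Total counts per library ran from 76481820 to 91604947. ALB, the main hepatocyte product, was read at 4021 to 5713 FPKM, PTPRC, a leukocyte marker, at 0 to 0.49 and COL1A1, a fibroblast marker, at 0.07 to 0.58. Of the 6 markers of other cells, CD68 and ACTA2 were the highest, at up to 30.7 and 44.4 FPKM, and the 6 together summed to 43.5 to 65.4 FPKM. The markers differed between the lines: of 6 hepatocyte markers 4 were higher and 2 lower in APOA4-KO at 0 h, as again at 24 h, and by 48 h 5 were higher and 1 lower, with AFP, the fetal counterpart of albumin, higher by 2.71 to 3.00 (log2) over the 3 times and TTR, the thyroxine carrier transthyretin, by 1.75 at 48 h. Of the 6 markers of other cells, 3 were higher and 2 lower in APOA4-KO at 0 h, with 1 higher and 1 lower at 24 h and 2 higher and 1 lower by 48 h. CD68, a macrophage marker, rose by 1.27 in APOA4-KO by 48 h (line difference 1.07), and KRT7, a bile duct keratin, changed by -1.83 there (adjusted p = 0.00117; line difference -1.13, adjusted p = 0.149). The part of these shifts in the members' line differences was not tested. All 10 hypoxia-responsive genes chosen as a check rose from 0 h in both lines at both times, CA9 for example by 2.99 to 4.08 (log2) in HepG2. The 10 were already higher in APOA4-KO than in HepG2 at 0 h (median 0.38, with CA9 at 1.67 and PFKFB4 at 1.05), so the lines differed on this check outside hypoxia. In a bulk library, fewer cells with a transcript and less of it per cell cannot be told apart.

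Of 90 tests of a member, 45 were called, that is, had an adjusted p under 0.05 in edgeR's quasi-likelihood test with Benjamini-Hochberg adjustment over all 19743 genes. Calls were common over all genes too. From 5477 (HepG2 at 48 h against 0 h) to 10033 (APOA4-KO against HepG2 at 48 h) of the 19743 were called in a comparison. The members' called changes were modest: the largest of any member was 0.85 on the log2 scale, in LRPPRC, so none reached a doubling. At 0 h, 2 members were higher in APOA4-KO than in HepG2 and 0 were lower (all genes: 12.9% higher and 17.6% lower). The differences between the lines were more numerous in hypoxia, as they were over all genes, with 4 members higher and 2 lower at 24 h (all genes: 23.6% and 24.6%) and 6 higher and 2 lower at 48 h (23.5% and 27.3%). Within HepG2, 3 members rose and 0 fell by 24 h (11.4% and 18.3%), a split that depended on the scaling as given in the next paragraph, and 3 rose and 1 fell by 48 h (13.1% and 14.6%). Within APOA4-KO, 4 rose and 1 fell by 24 h (21.5% and 22.8%), and 6 rose and 2 fell by 48 h (23.9% and 25.9%). The change from 0 h differed between the lines in 4 members at 24 h, 3 more positive in APOA4-KO (16.8%) and 1 more negative (15.4%), and in 5 at 48 h, 4 more positive (18.6%) and 1 more negative (17.8%). The comparisons share their 0 h and HepG2 libraries, so these counts are not independent of each other.

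The members' median log2 fold change between the lines came to 0.05 at 0 h, then 0.11 at 24 h, then 0.23 at 48 h, beside -0.01, 0.01 and -0.04 over all tested genes. The split of all genes into higher and lower calls depended on the scaling. With library size alone in place of TMM scaling, the median of all genes in APOA4-KO against HepG2 at 48 h was -0.19, and 18.2% of genes were called higher and 34.4% lower. In APOA4-KO at 48 h against 0 h the same scaling gave a median of -0.23 with 17.7% and 33.9% called, in the line difference at 48 h -0.21 with 12.6% and 26.7%, and in HepG2 at 24 h against 0 h -0.11 with 8.77% and 24.7%. The members' own split moved most in HepG2 at 24 h against 0 h: with library size alone, 1 was called higher (TWNK) and 3 lower (TFAM at -0.17, POLRMT at -0.20 and TEFM at -0.44), in place of 3 higher and 0 lower. Both models on FPKM gave the same split, but they too were run without TMM scaling and are not a separate check. Library size alone gave 4 higher and 2 lower in APOA4-KO against HepG2 at 48 h, 5 and 2 in APOA4-KO at 48 h against 0 h, and 3 more positive and 2 more negative in the line difference at 48 h. Member values are therefore read relative to the other genes.

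**Figure D1:**
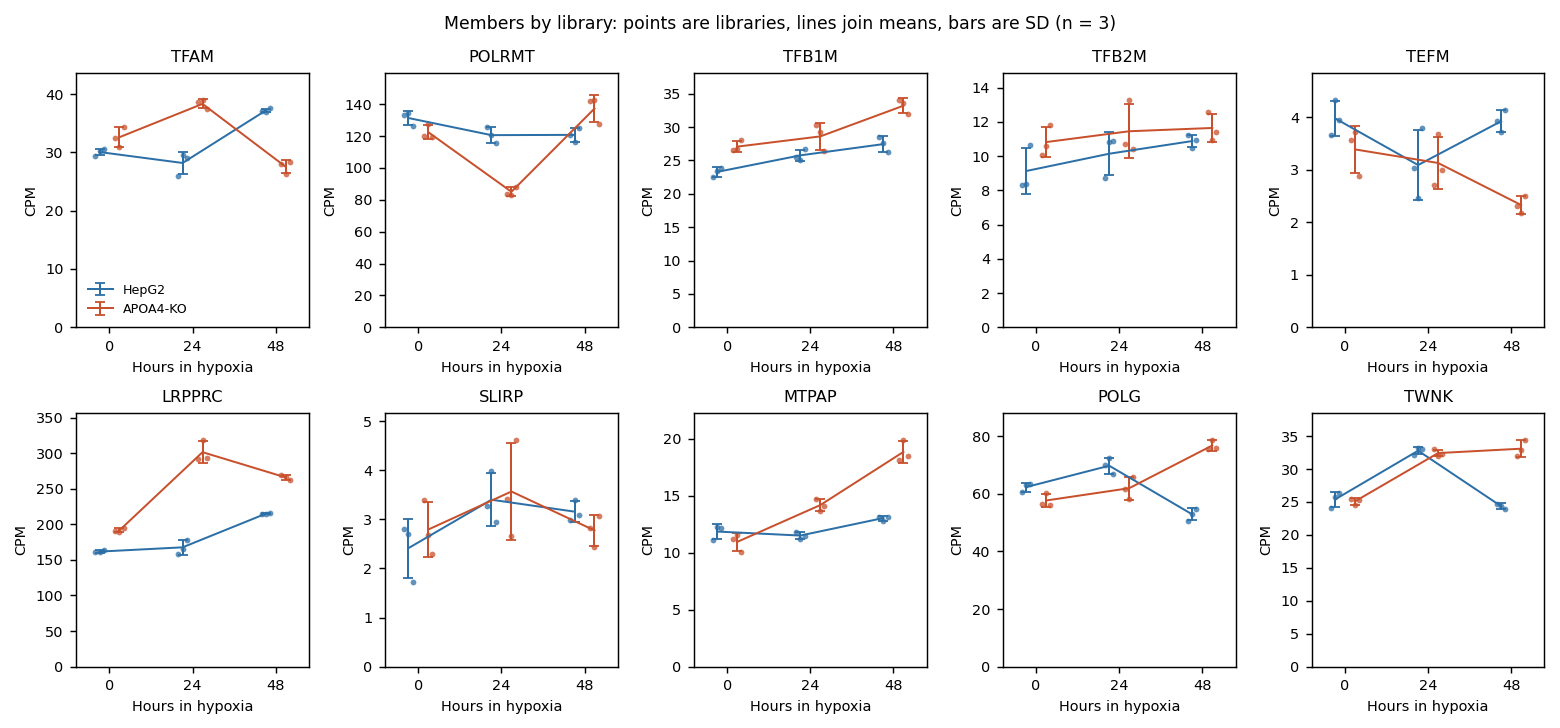
Each panel plots the CPM of 1 member (y axis, from 0) against hours in hypoxia (x axis) for HepG2 in blue and APOA4-KO in orange, with points for libraries, lines through group means and bars of SD (n = 3). TFAM peaks in APOA4-KO at 24 h and falls there by 48 h, POLRMT dips in APOA4-KO at 24 h, and LRPPRC lies above HepG2 at each time.

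Levels between genes are compared per length, as CPM without scaling, per kilobase of annotated exon, in HepG2 at 0 h, with exon lengths from GENCODE 29. On this scale POLRMT stood highest at 26.2, followed by LRPPRC at 16.9, POLG at 10.6, TFB1M at 8.69, TWNK at 6.27, TFAM at 5.47 and TFB2M at 5.04. MTPAP at 1.44, TEFM at 1.26 and SLIRP at 0.94 were the lowest. The length joins all annotated exons of a gene, whether or not these cells use them, so the order depends on the annotation too. The deposited FPKM divides LRPPRC by a longer gene model, 3.635 times the GENCODE 29 exon length, so its FPKM of 4.65 in HepG2 at 0 h understates it on that scale, and TFB1M and POLG were divided by models 1.54 and 1.32 times as long.

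TFAM (chr10:58385022-58399221, plus strand, GRCh38) switched sides between the lines within the hypoxia course. Its HepG2 libraries, in replicate order, held 29.5, 30.2 and 30.6 CPM at 0 h, 26.0, 29.6 and 29.0 at 24 h, then 37.1, 36.9 and 37.6 at 48 h. The APOA4-KO libraries held 32.4, 31.0 and 34.4 CPM at 0 h, 38.6, 38.9 and 37.5 at 24 h, then 28.1, 26.2 and 28.3 at 48 h. Every APOA4-KO library was thus above every HepG2 library at 24 h and below every one at 48 h. APOA4-KO was higher at 24 h by 0.44 ± 0.05 (log2, SE; adjusted p = 4.79e-07) and lower at 48 h by 0.43 ± 0.05 (adjusted p = 6.30e-07). HepG2 rose late, by 0.31 at 48 h (adjusted p = 1.20e-04), whereas APOA4-KO rose by 0.23 at 24 h (adjusted p = 7.69e-04) and was below its own 0 h level by 48 h, with a log2 change of -0.24 (adjusted p = 5.06e-04). The change from 0 h differed between the lines by 0.33 at 24 h (adjusted p = 0.00144) and by -0.55 at 48 h (adjusted p = 5.07e-06). In the order of group means, APOA4-KO at 24 h and HepG2 at 48 h overlapped at the top, and HepG2 at 0 h, HepG2 at 24 h and APOA4-KO at 48 h overlapped in turn at the bottom. At 0 h the difference of 0.12 did not pass (adjusted p = 0.0946), although it passed in 5 of 27 alternative settings.

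POLRMT (chr19:617224-633604, minus strand), the polymerase itself, moved the other way at 24 h. HepG2 stayed in a narrow band, with 133, 134 and 127 CPM at 0 h, 126, 120 and 115 at 24 h, then 121, 116 and 125 at 48 h. APOA4-KO held 120, 127 and 120 CPM at 0 h, 83.6, 83.3 and 88.2 at 24 h, then 142, 142 and 127 at 48 h. Only the APOA4-KO group at 24 h stood clear of its neighbour in the order of means, since the other 5 groups overlapped in turn. POLRMT was lower in APOA4-KO than in HepG2 at 24 h by 0.50 ± 0.05 (adjusted p = 2.48e-08), a fold of 0.705, and fell by 0.53 from its own 0 h level (adjusted p = 1.55e-08). Within HepG2 the changes of -0.12 at 24 h and -0.12 at 48 h did not pass (adjusted p = 0.0519 and 0.0591), although the first passed in 6 of 27 alternative settings, among them library size alone (-0.20, adjusted p = 0.00243), and the second in 3, with adjusted p from 0.0279 to 0.0299. By 48 h POLRMT in APOA4-KO was 0.19 higher than in HepG2 (adjusted p = 0.00223) and 0.17 higher than at 0 h (adjusted p = 0.00556), 2 small differences that did not pass with library size alone, at 0.04 and 0.01 (adjusted p = 0.568 and 0.918), where relative to the median of all genes they were 0.22 and 0.23. The line difference in the change was -0.40 at 24 h (adjusted p = 7.53e-05). At 48 h it was 0.29 (adjusted p = 0.00162), or 0.11 with library size alone (adjusted p = 0.190; 0.33 relative to the median). POLRMTP1, an annotated copy of POLRMT, was listed at 113 to 291 counts against at least 6487 for POLRMT, and reads shared between them would be uncertain.

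TFB2M (chr1:246540560-246566324, minus strand), the factor that opens the promoter together with the polymerase, was not called in any of the 9 comparisons. Its libraries ranged from 8.31 to 11.2 CPM in HepG2 and from 10.1 to 13.3 in APOA4-KO, and all neighbouring groups in the order of means overlapped. The difference between the lines was 0.25 ± 0.12 at 0 h (adjusted p = 0.130), 0.17 ± 0.12 at 24 h and 0.10 ± 0.12 at 48 h. Without the third HepG2 library at 0 h, which held 10.7 CPM beside 8.31 and 8.40, the 0 h difference was 0.37 (adjusted p = 0.0295) and the rise of HepG2 to 48 h was 0.40 (adjusted p = 0.0216). The rise passed in 1 of 27 alternatives, the one without this library. The 0 h difference passed in 2 of 27, the other with genes below a mean of 10 CPM dropped (0.29, adjusted p = 0.0362).

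TFB1M (chr6:155257509-155314493, minus strand), the methyltransferase of the small mitochondrial rRNA, was higher in APOA4-KO at all 3 times. HepG2 held 22.5, 23.4 and 23.9 CPM at 0 h, 25.5, 25.0 and 26.7 at 24 h, then 28.5, 27.6 and 26.2 at 48 h. APOA4-KO held 26.5, 26.7 and 28.0 CPM at 0 h, 30.2, 29.2 and 26.4 at 24 h, then 34.0, 33.6 and 32.0 at 48 h. The lines did not overlap at 0 h and 48 h, and overlapped at 24 h. The difference was 0.22 ± 0.05 at 0 h (adjusted p = 0.00387), 0.15 ± 0.05 at 24 h (adjusted p = 0.0244), reaching 0.27 ± 0.05 by 48 h (adjusted p = 2.18e-04). Both lines rose to 48 h, HepG2 by 0.24 (adjusted p = 0.00208) and APOA4-KO by 0.29 (adjusted p = 1.11e-04), and the change did not differ between them by this test (0.06 ± 0.08, adjusted p = 0.625). The rise of HepG2 to 24 h, 0.15 (adjusted p = 0.0469), passed in 8 of 27 alternatives. The 24 h difference was lost when any of 4 of the 6 libraries at 24 h was left out (both lines' replicates 1 and 2). Adjusted p was then 0.0665 to 0.102. It was also lost in DESeq2's Wald test (0.14, adjusted p = 0.0507). The 48 h difference was lost in both FPKM models (adjusted p = 0.0641 and 0.0638) and with library size alone (0.12, adjusted p = 0.0689). Under that scaling the median of all genes between the lines at 48 h was -0.19.

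TEFM (chr17:30897336-30906820, minus strand), the elongation factor, was a low-level transcript, with 165 to 375 counts per library. HepG2 held 3.66, 4.32 and 3.95 CPM at 0 h, 3.03, 2.45 and 3.79 at 24 h, then 3.92, 3.71 and 4.13 at 48 h. APOA4-KO held 3.57, 3.71 and 2.88 CPM at 0 h, 2.71, 3.67 and 3.00 at 24 h, then 2.30, 2.18 and 2.50 at 48 h. The 48 h libraries of APOA4-KO were below all other APOA4-KO libraries. The difference from HepG2 was -0.75 ± 0.17 at 48 h (adjusted p = 8.86e-04), and the change from 0 h was -0.54 ± 0.17 (adjusted p = 0.0117), the second of which was -0.45 (adjusted p = 0.0630) without the second APOA4-KO library at 0 h. The line difference in the change to 48 h, -0.52 ± 0.24, did not pass (adjusted p = 0.0979), but did with library size alone (-0.69, adjusted p = 0.0248). Under that scaling the median of all genes was itself -0.21, beside -0.04 with TMM. Among TEFM's exon bases, 26.1% lie over genes on the opposite strand, of which ADAP2 held 153 to 556 counts. Whether reads were counted by strand is not given in the sources used here, so these counts are uncertain to that extent.

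**Figure D2:**
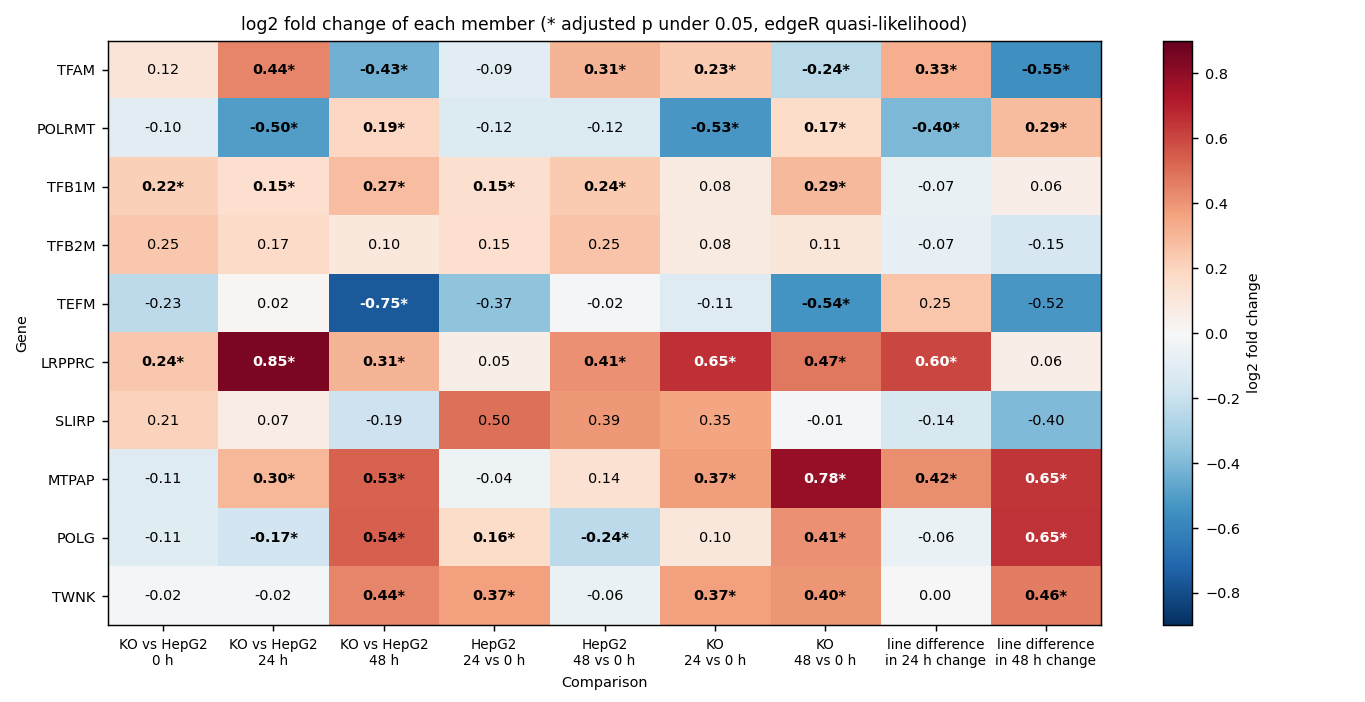
The heat map gives the log2 fold change of the 10 members (rows) in the 9 comparisons (columns), red for higher and blue for lower, with the value in each cell and an asterisk where the adjusted p was under 0.05. LRPPRC is called higher in APOA4-KO at all 3 times, and for TFAM and POLRMT the line comparisons at 24 h and 48 h are opposite in colour.

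LRPPRC (chr2:43886508-43996005, minus strand), which binds and protects mitochondrial mRNAs, showed the largest member difference and was higher in APOA4-KO at every time. HepG2 held 161, 161 and 164 CPM at 0 h, 159, 166 and 179 at 24 h, then 214, 215 and 216 at 48 h. APOA4-KO held 191, 189 and 195 CPM at 0 h, 292, 319 and 294 at 24 h, then 269, 267 and 262 at 48 h. The lines did not overlap at any time, and in the order of the 6 means HepG2 at 0 h and at 24 h were the only neighbours that overlapped. The difference was 0.24 ± 0.04 at 0 h (adjusted p = 3.71e-05). It was widest at 24 h, 0.85 ± 0.04 (adjusted p = 7.66e-13), a fold of 1.80, and narrowed to 0.31 ± 0.04 by 48 h (adjusted p = 7.28e-07). HepG2 rose by 0.41 at 48 h (adjusted p = 8.62e-08), with 0.05 at 24 h (adjusted p = 0.341). APOA4-KO rose by 0.65 by 24 h (adjusted p = 2.80e-11) and stood 0.47 above 0 h at 48 h (adjusted p = 2.20e-09). The change from 0 h was thus larger in APOA4-KO by 0.60 at 24 h (adjusted p = 4.58e-08), whereas the line difference at 48 h was 0.06 ± 0.05 (adjusted p = 0.396).

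SLIRP (chr14:77708071-77761104, plus strand), the partner that LRPPRC holds in its complex, was the least counted member, with 143 to 375 counts per library, and was not called in any comparison. Its libraries ranged from 1.72 to 3.99 CPM in HepG2 and from 2.30 to 4.63 in APOA4-KO. The largest fitted change was in HepG2 from 0 h to 24 h, 0.50 ± 0.22 (adjusted p = 0.106). Standard errors were 0.22 to 0.31 on the log2 scale, so differences as small as many of those called in the other members were not detectable at this depth. SLIRP and SNW1, read at 2320 to 3695 counts, overlap on opposite strands over 118 exon bases, and 14.9% of SLIRP's exon bases lie over other genes.

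MTPAP (chr10:30309801-30374448, minus strand), the mitochondrial poly(A) polymerase, rose in APOA4-KO through the course. HepG2 held 11.1, 12.3 and 12.2 CPM at 0 h, 11.8, 11.2 and 11.5 at 24 h, then 13.2, 12.8 and 13.2 at 48 h. APOA4-KO held 11.2, 11.5 and 10.1 CPM at 0 h, 14.7, 13.7 and 14.1 at 24 h, then 18.1, 19.9 and 18.5 at 48 h. The lines overlapped at 0 h and were apart at 24 h and 48 h. APOA4-KO exceeded HepG2 by 0.30 ± 0.06 at 24 h (adjusted p = 6.40e-04) and by 0.53 ± 0.06 at 48 h (adjusted p = 9.81e-07). It rose from its own 0 h level by 0.37 at 24 h (adjusted p = 8.29e-05) and, later, by 0.78 at 48 h (adjusted p = 5.86e-09), a fold of 1.72, while HepG2 changed by -0.04 and 0.14 (adjusted p = 0.706 and 0.135). The change from 0 h differed between the lines by 0.42 at 24 h (adjusted p = 0.00145) and by 0.65 at 48 h (adjusted p = 1.37e-05). Of MTPAP's exon bases, 33.1% lie over other annotated genes, which held 0 or 1 counts.

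The mRNAs of the mitochondrial genome were mostly lower in APOA4-KO in hypoxia, where LRPPRC and MTPAP were higher and SLIRP was not called. Of the 10 members, 4 were higher and 2 lower at 24 h (all genes: 23.6% and 24.6%), and 6 higher and 2 lower at 48 h (23.5% and 27.3%). The lower ones were POLRMT (-0.50) and POLG (-0.17) at 24 h, and TFAM (-0.43) and TEFM (-0.75) at 48 h. The 13 mRNAs of the mitochondrial genome took 6.14% to 6.31% of all counts in the HepG2 libraries at 0 h, 7.27% to 7.39% at 24 h and 4.76% to 4.95% at 48 h. In APOA4-KO the shares were 6.67% to 6.91%, 4.05% to 4.15% and 3.62% to 3.65%. At 0 h, 10 of the 13 were higher in APOA4-KO than in HepG2 and 1 was lower (median log2 fold change 0.10; all genes: 12.9% and 17.6%), with LRPPRC higher by 0.24 and MTPAP not called. All 13 were lower in APOA4-KO at 24 h (median -0.98; all genes: 24.6% lower), and at 48 h 10 were lower and 2 higher (median -0.95; 27.3% and 23.5%). From 0 h to 48 h all 13 fell in APOA4-KO, from a change of -0.17 in MT-CO1 to -2.20 in MT-CO3, and all 13 fell in HepG2 with a median of -0.51 (all genes: 25.9% and 14.6% lower). In HepG2 at 24 h, by contrast, 11 of the 13 rose and 1 fell (11.4% and 18.3%). Of the rRNAs, MT-RNR1, the small rRNA that TFB1M methylates, differed between the lines by 0.07 at 0 h (adjusted p = 0.0688), and was higher in APOA4-KO by 0.39 at 24 h (adjusted p = 1.38e-09), then by 0.31 at 48 h (adjusted p = 2.37e-08). MT-RNR2, the large rRNA, was higher in APOA4-KO by 0.15 at 0 h (adjusted p = 1.94e-06), lower by 0.43 at 24 h (adjusted p = 2.41e-13), then not called, with -0.03 by 48 h (adjusted p = 0.242). The libraries were made from poly(A) RNA, so a change in the tails and a change in the amount of these RNAs cannot be told apart. The part of LRPPRC, MTPAP or any other member in these values was not tested.

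**Figure D3:**
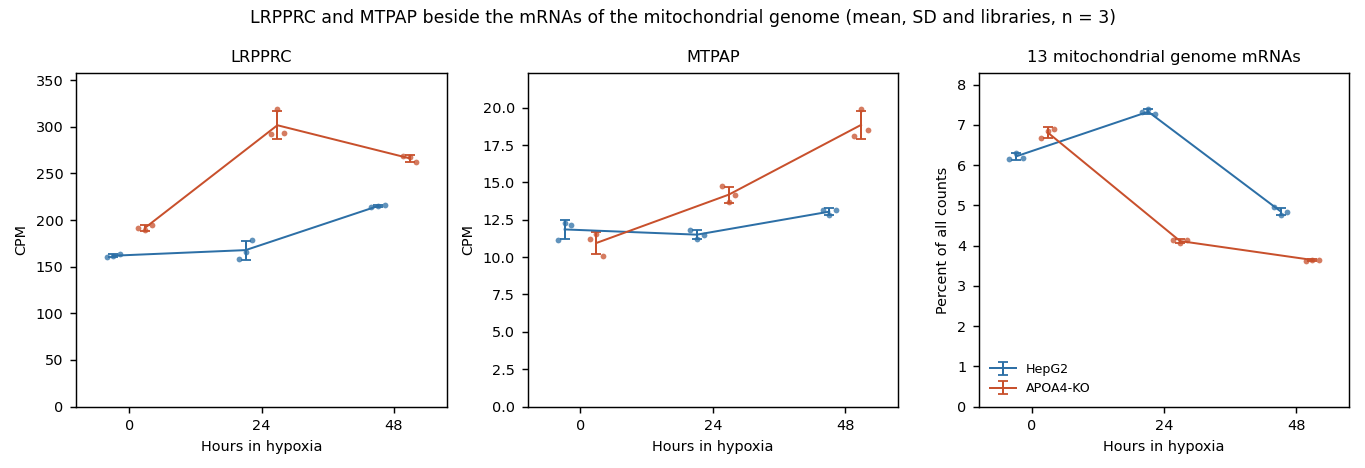
The panels plot LRPPRC and MTPAP in CPM and the 13 mitochondrial genome mRNAs as a percentage of all counts (y axes, from 0) against hours in hypoxia for both lines, with libraries as points and bars of SD (n = 3). In APOA4-KO at 24 h and 48 h both genes lie above HepG2 and the mRNA share lies below it.

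POLG (chr15:89305198-89334861, minus strand), the catalytic subunit of the mitochondrial DNA polymerase, diverged between the lines at 48 h. HepG2 held 60.6, 63.0 and 63.5 CPM at 0 h, 70.0, 72.4 and 67.0 at 24 h, then 50.6, 53.2 and 54.8 at 48 h. APOA4-KO held 56.6, 60.3 and 56.3 CPM at 0 h, 61.7, 58.2 and 66.1 at 24 h, then 75.6, 78.8 and 76.1 at 48 h. APOA4-KO at 48 h was the highest of the 6 groups and HepG2 at 48 h the lowest, each clear of its neighbour. The difference at 48 h was 0.54 ± 0.05 (adjusted p = 1.03e-08), made of a rise of 0.41 in APOA4-KO (adjusted p = 4.25e-07) and a change of -0.24 in HepG2 (adjusted p = 6.52e-04), and the line difference in the change was 0.65 (adjusted p = 2.14e-07). At 24 h APOA4-KO was lower by 0.17 (adjusted p = 0.00471) and HepG2 had risen by 0.16 (adjusted p = 0.0119), values of -0.11 and 0.09 with library size alone (adjusted p = 0.0649 and 0.151). Under that scaling the medians of all genes in these comparisons were 0.08 and -0.11. The HepG2 rise at 24 h also failed to pass without its second library there (0.13, adjusted p = 0.0711). POLG shares 458 exon bases with FANCI on the opposite strand, which held 1177 to 2841 counts.

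TWNK (chr10:100987367-100994401, plus strand), the helicase that unwinds mitochondrial DNA ahead of POLG, rose in both lines by 24 h and stayed up in APOA4-KO at 48 h. HepG2 held 24.1, 25.7 and 26.3 CPM at 0 h, 32.2, 33.2 and 33.0 at 24 h, then 24.7, 24.4 and 23.9 at 48 h. APOA4-KO held 25.5, 24.5 and 25.3 CPM at 0 h, 33.0, 32.0 and 32.2 at 24 h, then 32.0, 32.8 and 34.5 at 48 h. The 6 groups formed a high set and a low set, 3 groups each, with overlap inside each set and none between them. The rise to 24 h was 0.37 in HepG2 (adjusted p = 1.56e-06) and 0.37 in APOA4-KO (adjusted p = 5.60e-07). At 48 h the change from 0 h was 0.40 in APOA4-KO (adjusted p = 1.92e-07) and -0.06 in HepG2 (adjusted p = 0.365), a line difference of 0.46 (adjusted p = 5.43e-06), and the lines differed by 0.44 ± 0.04 (adjusted p = 4.39e-08). Of TWNK's exon bases, 3.61% lie over MRPL43 on the opposite strand.

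**Figure D4:**
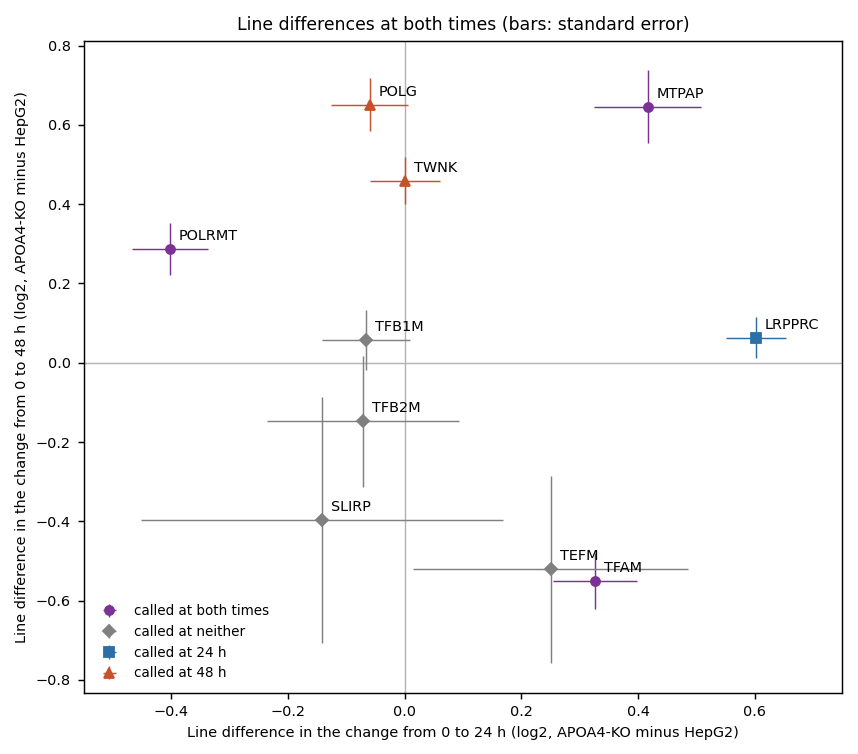
Each point is a member, placed by how far its change from 0 h in APOA4-KO exceeds that in HepG2 at 24 h (x axis) and at 48 h (y axis), in log2 units with bars of standard error. MTPAP is positive on both axes, TFAM and POLRMT have opposite signs on the axes, and POLG and TWNK lie near 0 at 24 h and above 0 at 48 h.

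The members with an NRF1 core in their promoter did not share a pattern. In APOA4-KO against HepG2 at 24 h, TFAM and MTPAP were higher by 0.44 and 0.30, TFB1M by 0.15, POLRMT was lower by 0.50, and TFB2M, at 0.17, was not called. At 48 h MTPAP was higher by 0.53, TFB1M by 0.27 and POLRMT by 0.19, and TFAM was lower by 0.43. The mRNA of NRF1 itself was not called between the lines at either time, with -0.03 and -0.15 (adjusted p = 0.831 and 0.239). Its protein and its binding were not measured here, and the part of NRF1 in the members' values was not tested.

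Across the 18 libraries, which fall into 6 groups and share their scaling, the members' log2 CPM went together in some pairs and apart in others. As a description, the highest Pearson's r were 0.80 for TFB1M and MTPAP, 0.78 for POLG and TWNK and 0.77 for TFB1M and LRPPRC, and the lowest were -0.75 for TFAM and POLG, -0.74 for TEFM and POLG and -0.72 for TFAM and POLRMT. Among 8551 genes with a mean of at least 10 CPM, those most like TFAM were BUB1, SEPTIN2 and NCAPG2, each with r of 0.95, and those most like POLRMT were RUSF1, WIZ and FKBP8, each with 0.96.

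Partners of POLG and TWNK in copying mitochondrial DNA and genes for the supply or breakdown of its nucleotides, 16 genes, were mostly lower in APOA4-KO at 48 h: 4 were higher and 10 lower than in HepG2 (median -0.29; all genes: 23.5% and 27.3%, or 18.2% and 34.4% with library size alone). MGME1, a nuclease that trims mitochondrial DNA ends, differed by -0.86, TYMP, thymidine phosphorylase, which breaks thymidine down, by -0.92 and DNA2, a nuclease-helicase, by -0.71. SLC25A36, a pyrimidine nucleotide carrier of the inner membrane, was higher by 0.80, TOP1MT, the mitochondrial topoisomerase, by 0.58 and POLG2, the accessory subunit of POLG, by 0.51. In HepG2 at 48 h against 0 h, 3 of the 16 rose and 1 fell (all genes: 13.1% and 14.6%), with SLC25A36 up by 0.91 and SLC25A33, another pyrimidine carrier, at -0.46. In APOA4-KO at 48 h against 0 h, 5 rose and 10 fell (median -0.43; all genes: 23.9% and 25.9%), among them TOP3A at -0.61 and TK2, mitochondrial thymidine kinase, at -0.60. At 24 h the lines differed in 6 genes that were higher and 7 lower in APOA4-KO (23.6% and 24.6%), and at 0 h in 2 and 4 (12.9% and 17.6%).

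A broad list of genes for mitochondrial transcripts, 24 in all, held genes that end, cut or degrade them and others that do not. Of these, 1 was higher and 12 lower in APOA4-KO than in HepG2 at 48 h (median -0.27; all genes: 23.5% and 27.3%, or 18.2% and 34.4% with library size alone), 5 higher and 7 lower at 24 h (23.6% and 24.6%), and 1 higher and 6 lower at 0 h (12.9% and 17.6%). HSD17B10, a subunit of the mitochondrial RNase P, was lower by 1.09 (adjusted p = 7.27e-14), ELAC2, which cuts tRNA 3′ ends, by 0.68 and MTERF4, which guides rRNA methylation, by 0.57. SUPV3L1, the helicase of the degradosome, was the gene that was higher, by 0.41. In HepG2 at 48 h against 0 h, 4 rose and 4 fell (13.1% and 14.6%), GRSF1, an RNA-granule protein, by 0.45 and PTCD1, a pentatricopeptide protein, at -0.36. APOA4-KO had 5 higher and 10 lower at 48 h than at 0 h (23.9% and 25.9%), with GRSF1 at 0.35, PDE12, which removes poly(A) tails in mitochondria, at 0.32, and PTCD1 at -0.64.

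Among 12 regulators of nuclear genes for mitochondria and matrix proteases, 8 were higher and 1 lower in APOA4-KO at 48 h (median 0.23; all genes: 23.5% and 27.3%), 5 higher and 3 lower at 24 h (23.6% and 24.6%), and 2 and 1 at 0 h (12.9% and 17.6%). PPARGC1A, the coactivator PGC-1α, was higher by 1.73 at 48 h (means of 13.5 CPM in HepG2 and 44.9 in APOA4-KO, adjusted p = 8.94e-14), and MYC by 1.45 (149.5 and 407 CPM, adjusted p = 1.99e-17). CLPX, the unfoldase of the protease CLPXP, was higher by 0.89, and its partner CLPP was lower by 0.23. In HepG2 from 0 h to 48 h, 3 rose and 3 fell (13.1% and 14.6%), with LONP1, the protease that degrades TFAM, at 0.32 and ESRRA, an orphan nuclear receptor, at -0.39. In APOA4-KO, 8 rose and 1 fell (23.9% and 25.9%), MYC by 1.15, CLPX by 1.13 and PPARGC1A by 1.08. The median of these genes in the line difference at 48 h was 0.40 beside -0.04 over all genes, with 7 more positive and 0 more negative (18.6% and 17.8%).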

How the data were processed

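The authors deposited raw gene counts and FPKM values for 18 libraries of HepG2 and APOA4-KO cells. The study's methods name fastp v0.23.1 for trimming, HISAT2 v2.1.0 for alignment to GRCh38.p13 (Ensembl release 109) and featureCounts for counting, whereas the submitters' processing notes name StringTie, so which tool made the deposited counts is unsettled. The counts of 4, 8 and 12 exceeded their neighbours in all 18 libraries (for 4, by 2.66 to 3.12 times), so a count need not be 1 read pair. Columns were tied to groups by the sample titles, and 0 columns stayed unassigned. Identifiers were paired with symbols for 61757 of 61806 genes.

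The test on counts was that of edgeR 4.0.16, run under R 4.3.3 (filterByExpr, TMM, 1 coefficient for each of 6 groups, quasi-likelihood F test, Benjamini-Hochberg over 19743 genes), and a gene was called at an adjusted p under 0.05. Errors of log2 fold changes are standard errors of the fit. CPM uses the TMM-scaled library sizes. DESeq2 1.42.0, limma 3.58.1 on log2(FPKM + 1) and log2(FPKM + 0.1), other scalings, filters, a replicate block and leaving out each library were alternatives, and the tests were tried on simulated data. Total counts of 76481820 to 91604947 set the depth. Beside the members, a rule picked up to 3 genes of each list in each direction in 3 comparisons. It went by the size of the log2 fold change among genes called and at a mean of at least 5 CPM. The genes named here are a choice from those picked, so larger changes were passed over in places. A few values of other list genes were added after their values were seen (NRF1, MT-CO1, both rRNAs and the hypoxia and cell markers). The members and lists were chosen with earlier results of these data known. Coordinates and exon overlap are from GENCODE 29 (GRCh38), whose release differs from that used for counting.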

Additional observations from a re-analysis of the deposited data

Results flagged for a closer look

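The change from 0 h differed between APOA4-KO and HepG2, by the test of the difference itself in the same edgeR model, in 9 cases among the 10 members at 2 times. At 24 h TFAM differed by 0.33 (log2, APOA4-KO minus HepG2; adjusted p = 0.00144), POLRMT by -0.40 (adjusted p = 7.53e-05), LRPPRC by 0.60 (adjusted p = 4.58e-08) and MTPAP by 0.42 (adjusted p = 0.00145). At 48 h TFAM differed by -0.55 (adjusted p = 5.07e-06), POLRMT by 0.29 (adjusted p = 0.00162), MTPAP by 0.65 (adjusted p = 1.37e-05), POLG by 0.65 (adjusted p = 2.14e-07) and TWNK by 0.46 (adjusted p = 5.43e-06). Over all tested genes, 16.8% were more positive and 15.4% more negative at 24 h, and 18.6% and 17.8% at 48 h, so differences of this kind were common in these libraries. For TFAM and POLRMT the sign at 24 h was opposite to that at 48 h.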

How the results depend on the processing

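The numbers of members called kept within 1.5 times the reported number in 80 of 81 alternatives to the processing, but a like number could hold other genes: in HepG2 at 24 h against 0 h, library size alone and both FPKM models gave 1 higher and 3 lower in place of 3 higher and 0 lower, with TFB1M and POLG no longer called and TFAM, POLRMT and TEFM called lower. With genes below a mean of 10 CPM dropped, which left 8 members, 4 were called in APOA4-KO against HepG2 at 0 h instead of 2. Leaving out 1 library at a time gave 1 to 3 members called in HepG2 at 24 h against 0 h (3 reported), with 1 only without the second HepG2 library at 24 h, and 2 to 3, 5 to 6 and 8 for the lines at 0 h, 24 h and 48 h. Among single members 0 calls turned direction. Of 792 values under other processing, 24 lost and 23 gained a call, and of 1620 with a library left out, 20 lost and 19 gained one. Library size alone lost 7 and gained 4, among them the POLRMT differences at 48 h, and each FPKM model lost 7 and gained 5. The FPKM models were run without TMM scaling, so they are not a separate check on library size alone. The cause of these lost and gained calls was not tested. Replicate numbers did not pair libraries: in 21 same-numbered pairs of groups the correlation of deviations was -0.05 to 0.02, 0 were over 0.1, and libraries correlated best with their own number in 2 pairs. With the number as a replicate block the members called in HepG2 at 24 h against 0 h were 2, since TFB1M (0.15, adjusted p = 0.0620) no longer passed, and the block changed no other member's call. Depth limited SLIRP and TEFM, which had 143 to 375 and 165 to 375 counts per library.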

Other observations

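The mRNAs of the mitochondrial genome did not fall evenly in APOA4-KO between 0 h and 48 h. MT-CO1 changed by -0.17 (log2), MT-ND4 by -0.23, MT-ND4L by -0.34, MT-ND6 by -0.45 and MT-ND5 by -0.64, each called, while the other 8 changed by -1.03 (MT-CO2) to -2.20 (MT-CO3). MT-CO1, MT-ND4, MT-ND4L and MT-ND5 are cut from the same long transcript of the heavy strand as MT-CO3, and MT-ND6 is the mRNA of the light strand. In HepG2 over the same time the 13 changes ran from -0.18 (MT-ND6) to -0.68 (MT-CYB). The genes were set apart after their values were seen, and the gap between them was not tested.

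Of the rRNAs, MT-RNR2, the large one, changed by -0.50 in APOA4-KO and by -0.33 in HepG2 from 0 h to 48 h (adjusted p = 1.66e-14 and 5.25e-11). MT-RNR1, the small one, changed by -0.02 in APOA4-KO (adjusted p = 0.614) and by -0.26 in HepG2 (adjusted p = 1.23e-06). The line difference in the change was -0.17 for MT-RNR2 and 0.24 for MT-RNR1 (adjusted p = 1.23e-05 and 9.62e-05).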
